A study of Mus musculus with 20 samples.

Results

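Complement is a system of proteins that marks cells and debris for removal and that attracts immune cells. The classical route starts when C1q, a molecule built from the chains C1qa, C1qb and C1qc, binds a target and switches on the attached proteases C1r and C1s, which then cleave C4. The product helps to cleave C3, the component on which all routes meet, and the fragments C3a and C5a act through the receptors C3ar1 and C5ar1, while Serping1, the C1 inhibitor, restrains C1r and C1s. In most tissues C1q is made by macrophages, whereas C3, C4 and Serping1 are also made by fibroblasts and other stromal cells.

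The 8 complement genes described here were chosen by name, namely C1qa, C1qb, C1qc, C3, C4b, C3ar1, C5ar1 and Serping1, out of 25851 genes in the deposited table, and all 8 had a row. They were measured in hearts of 20 male mice aged 14 to 16 weeks, in 4 groups of 5. Trained labelled knockout hearts came from mice listed as lacking PGC-1α in cardiomyocytes that had run on a voluntary wheel for 6 weeks, and trained wild-type hearts from wild-type mice with the same running. Sedentary labelled knockout and sedentary wild-type hearts came from mice of the same genotypes that had not trained. PGC-1α is a transcriptional coactivator of mitochondrial and oxidative metabolism, and the title of the series asks about its link to the stress cytokine GDF15 in training. The labels give no allele, Cre driver or strain, and RNA came from a small piece of each heart. In such bulk samples fewer cells of a type and less RNA per cell cannot be told apart.

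Levels are FPKM, fragments scaled by exon length and by library size, which compare genes per length. Differences are log2 values of FPKM + 0.5 with their standard error (SE), from 1 limma fit over the 4 groups, and a difference is called when its p, adjusted by Benjamini and Hochberg over 13723 tested genes, is below 0.05. Group levels are means ± SD with n = 5, and library values run from replicate 1 to replicate 5. Depth was 14.2 to 30.4 M recovered reads per library. Ppargc1a, the gene of PGC-1α, was not lower in the labelled knockout hearts, with 22.6 ± 3.01 FPKM in trained labelled knockout and 15.8 ± 4.86 FPKM in trained wild-type hearts, and with 22.9 ± 4.41 FPKM in sedentary labelled knockout and 12.3 ± 2.85 FPKM in sedentary wild-type hearts. The value covers all exons and the deleted part is not named in the labels, so the genotype is called labelled knockout throughout. The atrial gene Myl7 exceeded 1000 FPKM in 4 libraries, trained labelled knockout replicates 2 and 5 and trained wild-type replicates 4 and 5. The clock gene Arntl exceeded 2 FPKM in 5 libraries, sedentary wild-type replicates 1 to 4 and sedentary labelled knockout replicate 1.

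All 8 genes were higher in trained labelled knockout than in trained wild-type hearts, by 1.81-fold for Serping1 to 3.54-fold for C4b, where 12.5% of all tested genes were called higher. Without training the genotypes differed in 4 of the 8, namely the 3 C1q chains and C5ar1, where 6.96% of all tested genes were called higher. Training was accompanied by higher levels of 7 of the 8 in labelled knockout hearts, with C3 4.35-fold and C4b 5.81-fold higher, and of C3 alone in wild-type hearts, where 12.1% of all tested genes were called higher in labelled knockout and 2.94% in wild-type hearts. The plot of library values shows each gene in all 20 hearts.

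**Figure D1:**
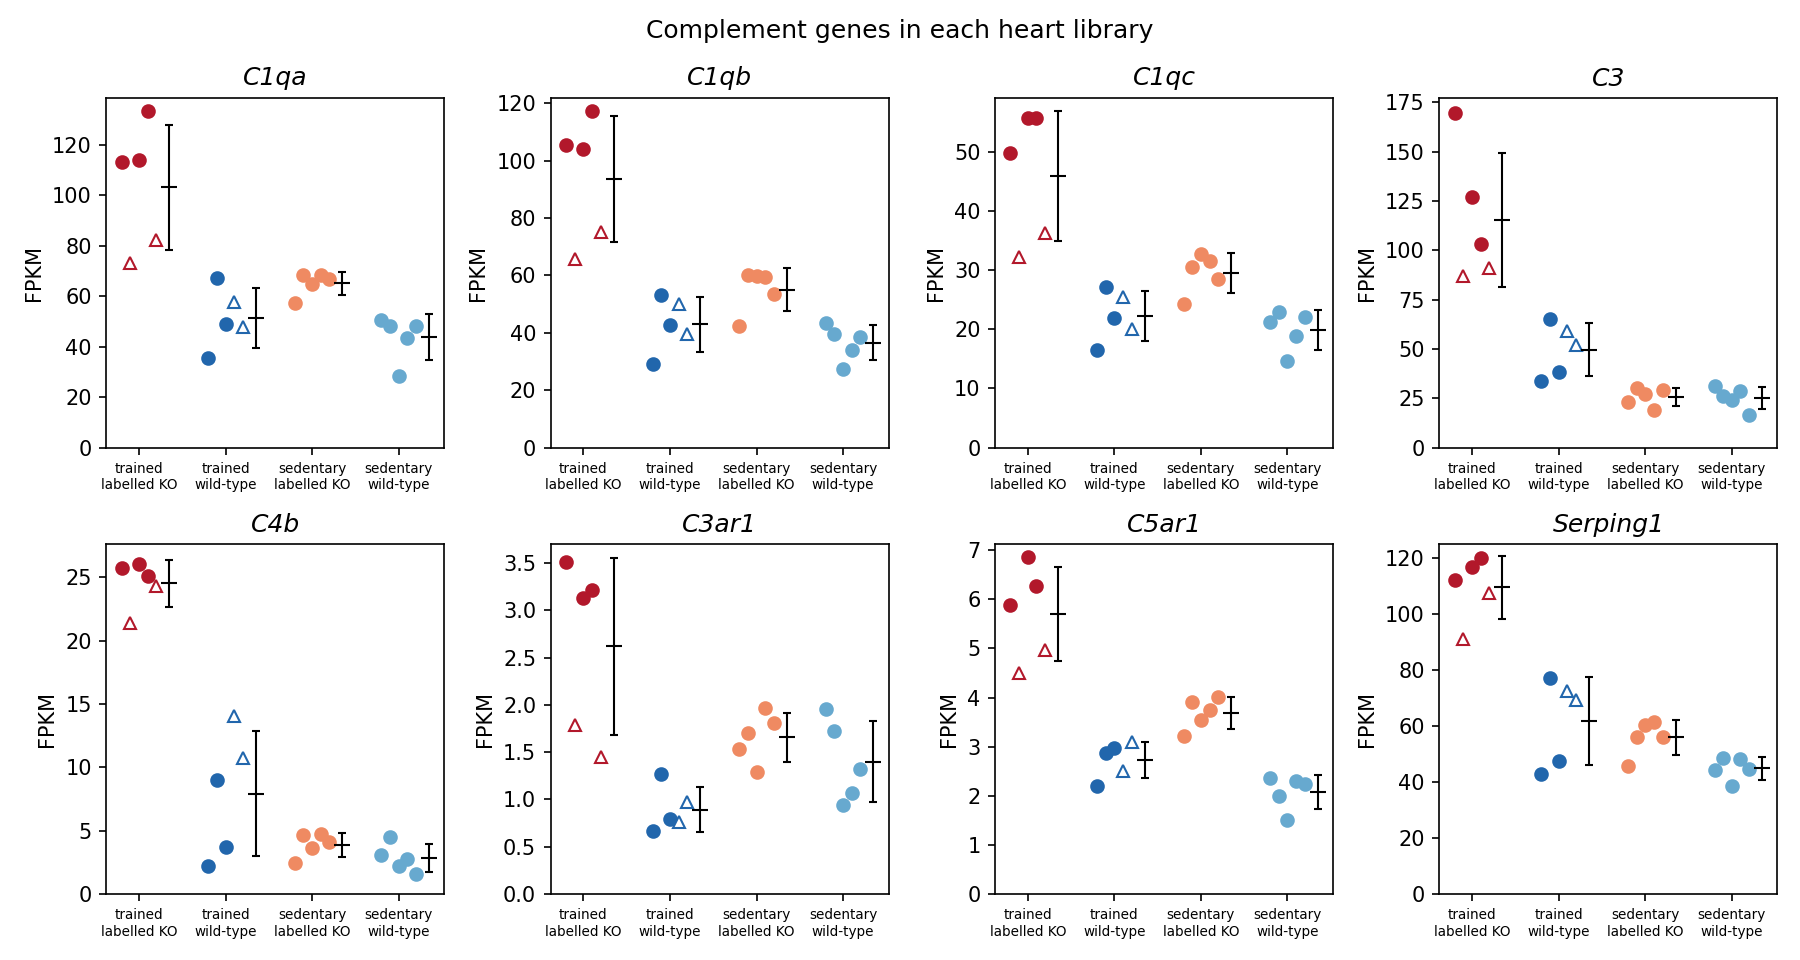
Level of each of the 8 complement genes in FPKM (linear axes from 0) for the 5 hearts of each group. Points are libraries, open triangles are the 4 libraries with Myl7 above 1000 FPKM, and the bar beside each group is the mean ± SD. In every panel the 5 trained labelled knockout hearts lie above the 5 trained wild-type hearts.

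The chains of C1q lie side by side on the minus strand of mouse chromosome 4 (GRCm38) as protein-coding genes, with C1qb (ENSMUSG00000036905) at chr4:136880129-136886187, C1qc (ENSMUSG00000036896) at chr4:136889804-136893065 and C1qa (ENSMUSG00000036887) at chr4:136895917-136898803. Because the 3 genes are neighbours whose levels moved together, the promoters of C1qb and C1qc are shown, from 250 bases before to 50 after the start in RefSeq on GRCm38.p6, at chr4:136886151-136886450 and chr4:136892865-136893164, 5′ to 3′ on the minus strand. Capitals mark the only match in each to GAGGAA, a core recognised by PU.1, the lineage factor of macrophages, which is written TTCCTC where it lies on the other strand.
C1qb: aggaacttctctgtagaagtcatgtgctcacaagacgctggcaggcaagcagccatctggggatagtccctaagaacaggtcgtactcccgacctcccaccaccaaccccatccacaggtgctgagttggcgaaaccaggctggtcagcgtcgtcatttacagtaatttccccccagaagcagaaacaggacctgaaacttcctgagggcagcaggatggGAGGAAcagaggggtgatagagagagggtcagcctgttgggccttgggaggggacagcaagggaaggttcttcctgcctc
C1qc: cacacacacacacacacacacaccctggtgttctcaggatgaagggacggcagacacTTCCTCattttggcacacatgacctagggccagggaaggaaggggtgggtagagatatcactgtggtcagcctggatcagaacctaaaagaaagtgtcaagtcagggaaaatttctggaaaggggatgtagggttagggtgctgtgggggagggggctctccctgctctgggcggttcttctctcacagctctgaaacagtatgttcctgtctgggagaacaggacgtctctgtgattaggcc
The match began 30 bases before the start in C1qb and 193 bases before it in C1qc. Of 32851 promoters of this length 28.3% held GAGGAA on either strand, so a match is common and describes letters only. RefSeq promoters were matched for 5 of the 8 genes, the others being C3, C3ar1 and C5ar1, and none of those 3 held GAGGAA. Of the other motifs searched on both strands, TGACTCA of AP-1 (in 5.2% of promoters) matched once, in C3ar1, while CACGTG, an E-box (7.15%), and AAGGTCA, the estrogen-related receptor half-site (4.72%), matched in none of the 5. These 4 motifs overlap no letters with each other in these windows.

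C1qa, the A chain of C1q, stood at 113, 73.2, 114, 133 and 82.1 FPKM in the trained labelled knockout hearts, against 35.3, 67.2, 49.0, 57.6 and 47.8 FPKM in the trained wild-type hearts. It stood at 57.5, 68.3, 64.7, 68.4 and 66.7 FPKM in the sedentary labelled knockout hearts, against 50.6, 48.3, 28.2, 43.4 and 48.1 FPKM in the sedentary wild-type hearts. In both pairs every labelled knockout heart lay above every wild-type heart. C1qb, the B chain, had 106, 65.7, 104, 117 and 75.0 FPKM in trained labelled knockout hearts, against 29.1, 53.2, 42.8, 49.9 and 39.6 FPKM in trained wild-type hearts. It had 42.5, 60.0, 59.6, 59.4 and 53.4 FPKM in sedentary labelled knockout hearts, against 43.2, 39.6, 27.3, 34.1 and 38.5 FPKM in sedentary wild-type hearts. Trained groups of C1qb did not overlap, and sedentary groups met only in 1 labelled knockout heart that lay below the highest wild-type heart.

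C1qc, the C chain, had 49.7, 32.2, 55.7, 55.6 and 36.2 FPKM in trained labelled knockout hearts, against 16.4, 27.1, 21.9, 25.4 and 20.0 FPKM in trained wild-type hearts. It had 24.2, 30.6, 32.7, 31.5 and 28.4 FPKM in sedentary labelled knockout hearts, against 21.2, 23.0, 14.6, 18.8 and 22.0 FPKM in sedentary wild-type hearts. Labelled knockout and wild-type hearts did not overlap in either pair. Across the 20 hearts the level of C1qa was 1.03 to 1.35 times that of C1qb and the level of C1qc 0.471 to 0.581 times that of C1qb, with coefficients of variation of 6.91 and 6.42%. The 3 chains thus kept close to 1 proportion in all groups.

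C4b and C3 carry the cascade onward from C1. C4b (ENSMUSG00000073418, minus strand, chr17:34728380-34743882, protein coding) encodes mouse complement C4, and reads could be split with its near-identical copy C4a, which was at 0.0387 to 0.139 FPKM, so the level of C4b is uncertain. C4b had 25.7, 21.4, 26.1, 25.1 and 24.3 FPKM in trained labelled knockout hearts, against 2.17, 8.96, 3.70, 14.0 and 10.7 FPKM in trained wild-type hearts. It had 2.41, 4.66, 3.61, 4.70 and 4.07 FPKM in sedentary labelled knockout hearts, against 3.06, 4.49, 2.18, 2.72 and 1.57 FPKM in sedentary wild-type hearts. The trained labelled knockout hearts were high and close together, with a coefficient of variation of 7.55%, whereas the trained wild-type hearts spread over 6.44-fold, at 62.2%. The wild-type spread moved with Upk3b, a mesothelial marker, which was at 0.198, 14.7, 0.884, 18.9 and 9.43 FPKM in the same 5 hearts. With Upk3b as a covariate, a fit chosen after the data were seen, C4b still passed between the trained groups. What the shared spread reflects was not tested. In the trained labelled knockout hearts Upk3b was at 5.44, 10.2, 1.55, 0.683 and 7.66 FPKM, and the heart with the most Upk3b had the least C4b.

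C3 (ENSMUSG00000024164, minus strand, chr17:57203970-57228136, protein coding), the central component, had 169, 86.9, 127, 103 and 90.9 FPKM in trained labelled knockout hearts, against 33.7, 65.0, 38.4, 59.0 and 51.9 FPKM in trained wild-type hearts. It had 23.1, 30.0, 26.9, 19.1 and 29.2 FPKM in sedentary labelled knockout hearts, against 31.1, 26.3, 24.0, 28.4 and 16.3 FPKM in sedentary wild-type hearts. The trained groups stood apart from each other and from their sedentary counterparts, and the sedentary groups lay over each other. C3 was the gene of the 8 with the highest mean in trained labelled knockout hearts, at 115 ± 34.0 FPKM, although in sedentary hearts of the same genotype, at 25.7 ± 4.53 FPKM, it stood below every C1q chain and Serping1. Its median in trained labelled knockout hearts, 103 FPKM, lay below those of C1qa, C1qb and Serping1, at 113, 104 and 112 FPKM. The ratio of C4b to C3 averaged 0.223 ± 0.0456 in trained labelled knockout, 0.149 ± 0.0728 in trained wild-type, 0.156 ± 0.0534 in sedentary labelled knockout and 0.110 ± 0.0337 in sedentary wild-type hearts.

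The receptors were the least abundant of the 8 genes. C3ar1 (ENSMUSG00000040552, minus strand, chr6:122847138-122856161, protein coding), the receptor for C3a, rested on 57 to 481 recovered reads per library. It had 3.51, 1.79, 3.13, 3.22 and 1.44 FPKM in trained labelled knockout hearts, against 0.661, 1.27, 0.794, 0.757 and 0.971 FPKM in trained wild-type hearts. It had 1.53, 1.70, 1.29, 1.97 and 1.80 FPKM in sedentary labelled knockout hearts, against 1.95, 1.73, 0.935, 1.07 and 1.32 FPKM in sedentary wild-type hearts. C3ar1 was the only one of the 8 whose mean was lowest in trained wild-type hearts, and the 2 low trained labelled knockout hearts are those with high Myl7. C5ar1 (ENSMUSG00000049130, minus strand, chr7:16246743-16259540, protein coding), the receptor for C5a, had 5.89, 4.49, 6.85, 6.28 and 4.97 FPKM in trained labelled knockout hearts, against 2.20, 2.87, 2.96, 2.50 and 3.10 FPKM in trained wild-type hearts. It had 3.21, 3.91, 3.55, 3.74 and 4.01 FPKM in sedentary labelled knockout hearts, against 2.36, 1.99, 1.50, 2.30 and 2.24 FPKM in sedentary wild-type hearts. Both pairs of C5ar1 stood apart, and its 4 group means took the same order as those of the C1q chains.

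Serping1 (ENSMUSG00000023224, minus strand, chr2:84765387-84775444, protein coding), the inhibitor of C1r and C1s, had 112, 91.0, 117, 120 and 107 FPKM in trained labelled knockout hearts, against 42.8, 76.9, 47.3, 72.6 and 69.1 FPKM in trained wild-type hearts. It had 45.7, 56.1, 60.2, 61.3 and 56.1 FPKM in sedentary labelled knockout hearts, against 44.2, 48.6, 38.6, 48.1 and 44.7 FPKM in sedentary wild-type hearts. The trained groups did not overlap and the sedentary groups did. Within trained wild-type hearts replicates 2, 4 and 5 were the high ones for Serping1, C3 and C4b alike.

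The group means followed few orders. C1qa, C1qb, C1qc and C5ar1 ran in falling order from trained labelled knockout through sedentary labelled knockout and trained wild-type to sedentary wild-type hearts. C3, C4b and Serping1 had trained wild-type hearts before sedentary labelled knockout hearts. For C1qa the mean was 103 ± 24.8 FPKM in trained labelled knockout, 51.4 ± 11.9 FPKM in trained wild-type, 65.1 ± 4.54 FPKM in sedentary labelled knockout and 43.7 ± 9.08 FPKM in sedentary wild-type hearts. In the middle of the order, the neighbours sedentary labelled knockout and trained wild-type overlapped for the C1q chains, C4b and Serping1 and were not tested against each other. At the bottom, sedentary labelled knockout and sedentary wild-type hearts overlapped for C3, C4b and Serping1. C3ar1 alone had its lowest mean in trained wild-type hearts, at 0.890 ± 0.239 FPKM in trained wild-type and 1.40 ± 0.431 FPKM in sedentary wild-type hearts, which overlapped.

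In trained hearts the comparison of genotypes asks whether loss of PGC-1α, as labelled, changes the transcriptome of the running mouse. All 8 complement genes passed, all higher in labelled knockout hearts, where 12.5% of all tested genes were called higher and 15.4% lower. The log2 difference was 1.00 ± 0.18 for C1qa, 1.11 ± 0.18 for C1qb and 1.02 ± 0.16 for C1qc (SE, limma adjusted p = 3.3e-04, 7.9e-05 and 9.9e-05). It was largest for C4b, at 1.83 ± 0.35 (limma adjusted p = 5.0e-04), and stood at 1.21 ± 0.21 for C3 (limma adjusted p = 2.1e-04). The receptors C3ar1 and C5ar1 differed by 1.12 ± 0.19 and 0.94 ± 0.12 (limma adjusted p = 2.0e-04 and 5.7e-06), and Serping1 by 0.85 ± 0.14 (limma adjusted p = 1.2e-04). The groups did not overlap for any of the 8, as held for 8.07% of all genes in the upward direction. The median difference was 1.06 over the 8 genes and -0.01 over all genes tested.

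The trained hearts were also set against each other by their level of the atrial gene Myl7. Among the 3 labelled knockout and 3 wild-type trained hearts with low Myl7 the difference in mean log2(FPKM + 0.5), labelled knockout minus wild-type, was 1.29 for C1qa, 1.42 for C1qb, 1.30 for C1qc, 1.56 for C3, 2.46 for C4b, 1.45 for C3ar1, 1.11 for C5ar1 and 1.10 for Serping1. Among the 2 labelled knockout and 2 wild-type trained hearts with high Myl7 it was 0.56, 0.65, 0.59, 0.68, 0.87, 0.63, 0.67 and 0.48 for the same genes in that order. The values were smaller where Myl7 was high for all 8 genes. With TPM scaling, which forces each library to 1 sum, the median of all genes moved by 0.24 in this comparison, and 5128 genes were called higher and 789 lower, against 1713 and 2112 as deposited. The 8 complement genes all passed under TPM as well, at 0.90 to 1.86 above that median.

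In sedentary hearts 4 of the 8 genes were higher in labelled knockout hearts and none lower (no gene was lower at an unadjusted p below 0.05 and 5 were higher), where 6.96% of all tested genes were called higher and 6.32% lower. These shares are for the adjusted p, and none was counted for the unadjusted p. C5ar1 differed by 0.71 ± 0.12 (limma adjusted p = 5.5e-04). C1qa, C1qb and C1qc differed by 0.60 ± 0.18, 0.59 ± 0.18 and 0.56 ± 0.16 (limma adjusted p = 0.0349, 0.0318 and 0.0286). The groups of 3 of the 8 stood apart, C1qa, C1qc and C5ar1, against 5.14% of all genes in the upward direction and 5.29% in the downward direction. C3 differed by 0.04 with a 95% interval of -0.40 to 0.48 (limma adjusted p = 0.92). C4b differed by 0.44 (95% interval -0.28 to 1.17), C3ar1 by 0.21 (-0.20 to 0.61) and Serping1 by 0.31 (0.02 to 0.61), with limma adjusted p of 0.409, 0.501 and 0.142. The C1q calls lay close to the threshold: none of the 3 passed without sedentary wild-type replicate 3, at 0.45, 0.49 and 0.46 for C1qa, C1qb and C1qc, nor without any 1 of sedentary labelled knockout replicates 2 to 5, at 0.52 to 0.60 for the 3 genes. A fit that dropped the 5 high-Arntl libraries kept a single sedentary wild-type heart, too few to judge calls. It gave 0.48, 0.59, 0.47 and 0.65 for C1qa, C1qb, C1qc and C5ar1. In that fit C3 stood at 0.66 and C4b at 1.19.

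**Figure D2:**
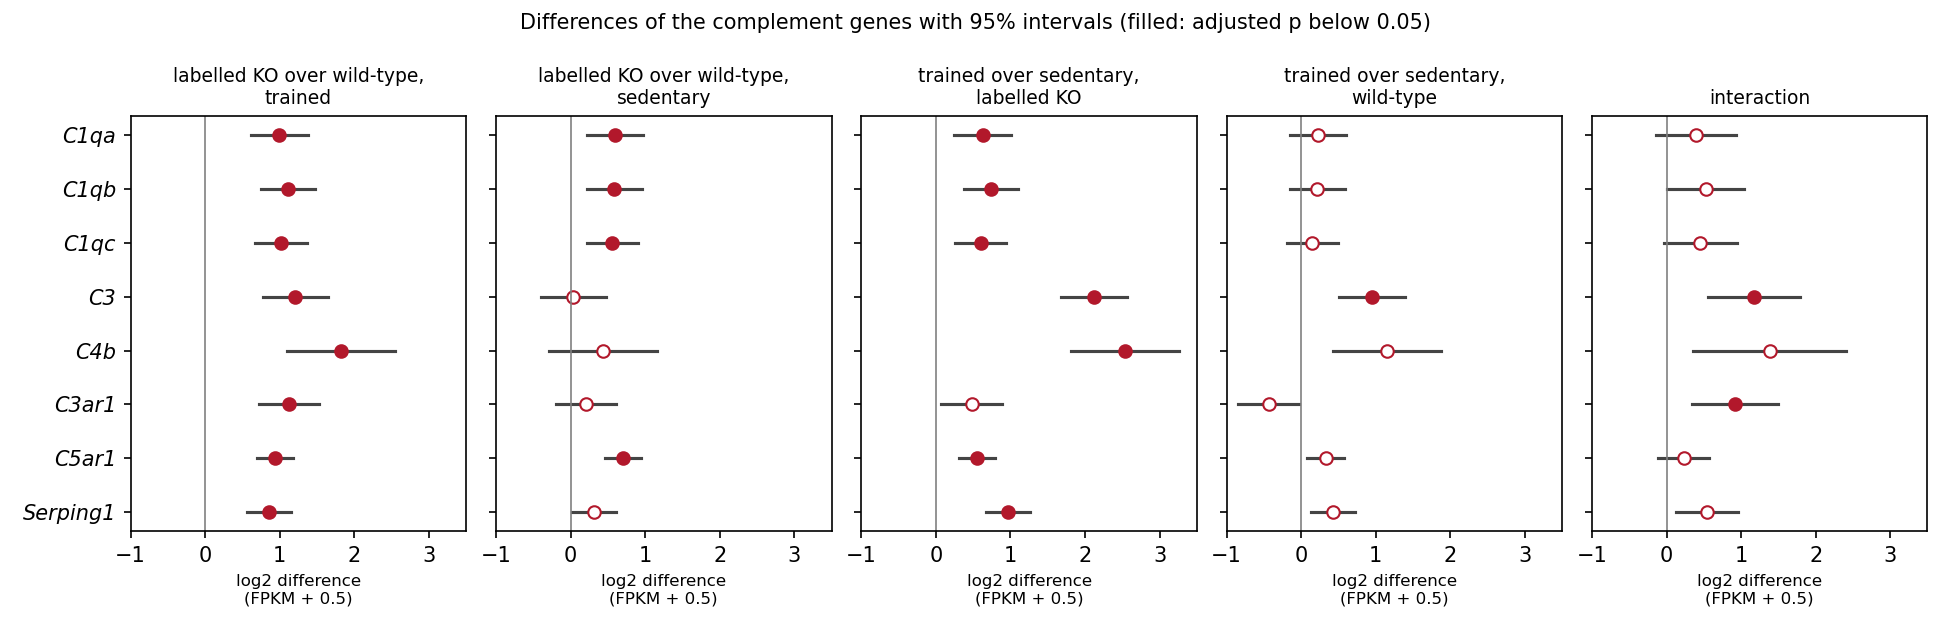
Log2 difference of FPKM + 0.5 for each complement gene in the 4 pairwise comparisons and the interaction, with 95% intervals from the limma fit. Filled points passed an adjusted p of 0.05. All 8 points are filled for labelled knockout over wild-type hearts after training, 4 in the sedentary state, 7 for training in labelled knockout hearts, 1 for training in wild-type hearts and 2 for the interaction.

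Training was compared within each genotype to ask what running changes with and without the coactivator. In labelled knockout hearts 7 of the 8 genes rose and none fell (8 were higher and none lower at an unadjusted p below 0.05), where 12.1% of all tested genes were called higher and 16.3% lower. Shares at the unadjusted p were not counted here either. The components downstream of C1 changed most, C4b by 2.54 ± 0.35 and C3 by 2.12 ± 0.21 (limma adjusted p = 3.5e-05 and 3.4e-06). Serping1 rose by 0.96 ± 0.14 (limma adjusted p = 5.7e-05), and C5ar1 by 0.56 ± 0.12 (limma adjusted p = 0.00135). The C1q chains rose by 0.63 ± 0.18 for C1qa, 0.74 ± 0.18 for C1qb and 0.60 ± 0.16 for C1qc (limma adjusted p = 0.0133, 0.00369 and 0.00936). C3ar1 differed by 0.48 ± 0.19 and missed the threshold (limma adjusted p = 0.0716), and without trained labelled knockout replicate 2 or 5 it passed at 0.58 and 0.64. Trained and sedentary labelled knockout hearts stood apart for 6 of the 8, all but C1qc and C3ar1, against 8.96% of all genes in the upward direction.

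In wild-type hearts C3 was the gene of the 8 that rose with training, by 0.95 ± 0.21 (limma adjusted p = 0.0191), where 2.94% of all tested genes were called higher and 2.53% lower. Its trained and sedentary wild-type hearts did not overlap, as held for 2.24% of all genes in the upward direction. At an unadjusted p below 0.05, 4 of the 8 genes were higher and 1 lower, a threshold at which the share of all tested genes was not counted. C4b differed by 1.15 ± 0.35, Serping1 by 0.42 ± 0.14 and C5ar1 by 0.33 ± 0.12 (limma adjusted p = 0.056, 0.0759 and 0.0918), and C3ar1 by -0.44 ± 0.19 (limma adjusted p = 0.159). The C1q chains differed by 0.23 for C1qa (95% interval -0.15 to 0.61), 0.22 for C1qb (-0.15 to 0.58) and 0.15 for C1qc (-0.20 to 0.49). The C3 call did not hold without trained wild-type replicate 2 or 4, at 0.84 and 0.88, without the high-Myl7 libraries, at 0.82, or with Upk3b as a covariate, at 0.71. It was lost as well with the pair of wild-type groups fitted alone, at 0.95. Over all tested genes, 403 were called higher with training in wild-type hearts in the main fit. That count was 33 without the high-Myl7 libraries, 54 with Upk3b as a covariate and 52 with the pair alone. The fit without the high-Arntl libraries, with 1 sedentary wild-type heart left, gave C3 the larger value of 1.54. Without trained wild-type replicate 1, the heart lowest in C4b and Upk3b, 4 of the 8 genes passed, and without replicate 3, the next lowest in both, 3 passed, with C4b at 1.34. Over all tested genes, 1051 were called higher and 1260 lower without replicate 1, and 439 and 391 without replicate 3. The main fit gave 403 and 347.

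The interaction, the training difference in labelled knockout hearts minus that in wild-type hearts, was positive for all 8 genes and passed for 2, where 2.32% of all tested genes were called higher and 5% lower. C3 differed by 1.17 ± 0.30 (limma adjusted p = 0.0255), with training differences of 2.12 in labelled knockout and 0.95 in wild-type hearts. C3ar1 differed by 0.92 ± 0.27 (limma adjusted p = 0.0484), with training differences of 0.48 in labelled knockout and -0.44 in wild-type hearts. C4b had the largest value but also the widest interval, 1.38 with a 95% interval of 0.36 to 2.41 (limma adjusted p = 0.0871), and Serping1 was at 0.54, with 0.13 to 0.95 (limma adjusted p = 0.0976). C1qa, C1qb, C1qc and C5ar1 were at 0.40, 0.52, 0.45 and 0.23 (limma adjusted p = 0.322, 0.189, 0.22 and 0.373). The C3 value no longer passed without sedentary wild-type replicate 1, at 1.09, trained wild-type replicate 3, at 1.09, or trained labelled knockout replicate 3, at 1.13. C3ar1 no longer passed in 13 of the 20 fits that left out 1 library, at 0.81 to 0.97. Once the 4 high-Myl7 libraries were dropped, 6 of the 8 passed, with C4b at 2.02. Over all tested genes, 497 were called higher and 800 lower in that fit, against 319 and 686 in the main fit. Without the 5 libraries of high Arntl, with 1 sedentary wild-type heart left, C3 was at 0.55.

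Marker genes of macrophages and fibroblasts were higher in the same hearts. Of 13 macrophage markers, 10 were higher in trained labelled knockout than in trained wild-type hearts and none was lower, among them Adgre1, which encodes F4/80, by 1.47 ± 0.18 and Csf1r, the receptor for CSF1, by 1.09, and their median difference was 0.98. Their summed level ran from 103 to 152 FPKM in trained labelled knockout, 54.6 to 79.2 in trained wild-type, 69.5 to 87.0 in sedentary labelled knockout and 49.5 to 65.3 FPKM in sedentary wild-type hearts. In sedentary labelled knockout hearts 4 of the 13 were higher than in sedentary wild-type hearts, Cbr2, Cd68, Csf1r and Lyve1, and none was lower. The median over the 13 was 0.20, and 0.37 without the high-Arntl libraries, a fit with 1 sedentary wild-type heart left. With training 9 were higher and none lower in labelled knockout hearts, and in wild-type hearts Lyve1 was higher and Cx3cr1 lower. Neither of these wild-type calls held when the high-Myl7 libraries were dropped. Over all tested genes, those called higher with training in wild-type hearts fell from 403 to 33 in that fit, and those lower from 347 to 6. In the interaction 5 of the 13 were higher and none lower. The median over the 13 was 0.63 there, and 0.53 without the high-Arntl libraries, with 1 sedentary wild-type heart left. The summed level of the C1q chains was 1.81 ± 0.174 times that of the markers in trained labelled knockout, 1.77 ± 0.300 times in trained wild-type, 1.84 ± 0.117 times in sedentary labelled knockout and 1.68 ± 0.181 times in sedentary wild-type hearts. Single hearts ran from 1.40 to 2.08. The part of macrophage content in the C1q and receptor results was not tested.

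C5ar1 over the same marker sum averaged 0.0429 ± 0.00217 in trained labelled knockout and 0.0419 ± 0.00748 in trained wild-type hearts, and 0.0454 ± 0.00339 in sedentary labelled knockout and 0.0349 ± 0.00364 in sedentary wild-type hearts. C3ar1 over that sum averaged 0.0193 ± 0.00497 in trained labelled knockout and 0.0134 ± 0.00200 in trained wild-type hearts, and 0.0205 ± 0.00310 in sedentary labelled knockout and 0.0233 ± 0.00537 in sedentary wild-type hearts. The lowest mean of the C5ar1 ratio was that of sedentary wild-type hearts and the lowest of the C3ar1 ratio that of trained wild-type hearts. Neither was tested, and each overlapped some groups and stood apart from others. The C5ar1 ratio ran from 0.0303 to 0.0386 in sedentary wild-type hearts and overlapped trained wild-type hearts, at 0.0362 to 0.0543. It lay below all labelled knockout hearts, whose lowest values were 0.0413 in sedentary and 0.0412 in trained hearts. The C3ar1 ratio ran from 0.0114 to 0.0160 in trained wild-type and from 0.0120 to 0.0251 in trained labelled knockout hearts. In trained wild-type hearts it also overlapped sedentary labelled knockout hearts. It lay below all sedentary wild-type hearts, at 0.0174 to 0.0299.

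Of 10 fibroblast markers, 8 were higher in trained labelled knockout than in trained wild-type hearts and none was lower, among them the collagen genes Col1a1 by 1.60 and Col3a1 by 2.02. Their summed level ran from 1129 to 1618 FPKM in trained labelled knockout, 640 to 1153 in trained wild-type, 729 to 971 in sedentary labelled knockout and 618 to 802 FPKM in sedentary wild-type hearts. None of the 10 was called between sedentary groups or with training in wild-type hearts, while 7 were higher with training in labelled knockout hearts and 4 in the interaction. The median over the 10 in the interaction was 0.72, and 0.56 without the high-Arntl libraries, with 1 sedentary wild-type heart left. Gsn, which encodes gelsolin, made up the largest part of the sum, at 727 ± 259 FPKM in trained labelled knockout and 689 ± 209 FPKM in trained wild-type hearts, and differed by 0.07. Col3a1 and Mfap5 differed by 2.02 and 1.63 on the log2 scale between these groups, beside 1.83 for C4b. Over this sum C4b averaged 0.0193 ± 0.00360 in trained labelled knockout and 0.00770 ± 0.00353 in trained wild-type hearts, and 0.00458 ± 0.000956 in sedentary labelled knockout and 0.00407 ± 0.00161 in sedentary wild-type hearts. Because Gsn weighs so much in it, this ratio does not set C4b against the markers that differed. C3 over the sum averaged 0.0928 ± 0.0378 in trained labelled knockout and 0.0527 ± 0.00476 in trained wild-type hearts, with ranges that met, and Serping1 over the sum 0.0863 ± 0.0174 and 0.0656 ± 0.00354 in these groups. The part of fibroblast content in these results was not tested.

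**Figure D3:**
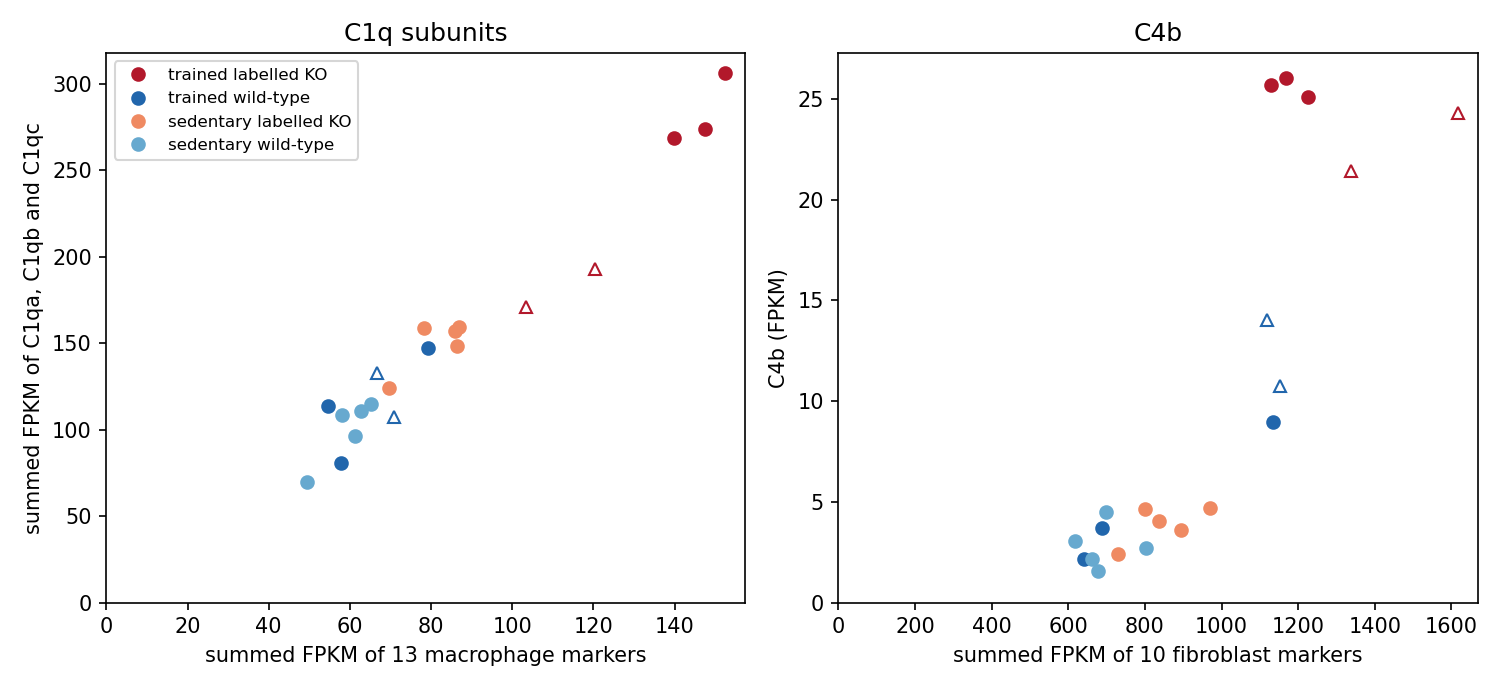
Left, summed FPKM of C1qa, C1qb and C1qc against the summed FPKM of 13 macrophage markers. Right, C4b against the summed FPKM of 10 fibroblast markers. Each point is 1 of the 20 libraries, coloured by group, open triangles are the 4 libraries with Myl7 above 1000 FPKM, and both axes are linear from 0. C1q and macrophage markers lie along 1 band over all groups, whereas the trained labelled knockout hearts, at 21.4 to 26.1 FPKM of C4b, lie above trained wild-type hearts of similar summed level, a sum in which Gsn has the largest part.

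Markers of other cells were examined in the same hearts. Of 8 cardiomyocyte markers 5 were lower in trained labelled knockout than in trained wild-type hearts, with sums of 12790 to 14837 FPKM in trained labelled knockout and 15553 to 19848 FPKM in trained wild-type hearts, and 6 were lower with training in labelled knockout hearts. Over all tested genes 15.4% and 16.3% were called lower in these comparisons. Under TPM scaling 3 of the 8 were lower and 1 higher between trained groups, and 5 were lower with training in labelled knockout hearts. Of 6 endothelial markers 4 were lower in trained labelled knockout than in trained wild-type hearts and 2 between the sedentary groups, and 1 was higher with training in wild-type hearts. None of 6 tested adipocyte, 5 erythroid and 1 lymphocyte markers was called in any comparison. With training the median difference was 1.64 in labelled knockout and 1.92 in wild-type hearts for adipocyte, 1.08 and 1.33 for erythroid, 3.19 and 2.48 for atrial and 0.89 and 1.53 for epicardial markers, beside 0.68 and 0.07 for macrophage and 0.98 and 0.23 for fibroblast markers. The adipocyte marker Adipoq and the atrial marker Myl7 were high only in the 4 trained hearts with Myl7 above 1000 FPKM. There Adipoq was at 36.7 and 3.94 FPKM in labelled knockout and 27.2 and 9.65 FPKM in wild-type hearts. In the other trained hearts Adipoq was at most 0.130 FPKM and Myl7 at most 2.88 FPKM. The part of these 4 hearts in the medians was not tested. Of 6 epicardial markers 1, Wt1, was lower in trained labelled knockout than in trained wild-type hearts, by -0.42, and higher with training in both genotypes. Of 5 atrial markers Nppa was higher in trained labelled knockout than in trained wild-type hearts, by 3.38, and of 2 tested neutrophil markers Csf3r was higher by 0.59. Monocyte markers were too low to test, with sums of 1.21 to 2.87 FPKM in trained labelled knockout and 0.171 to 1.12 FPKM in trained wild-type hearts. Hepatocytes, the main source of circulating complement, left almost no trace, with marker sums of at most 3.09 FPKM in any heart, and with Alb and Serpina1a at 0 in every sedentary labelled knockout heart and Fgb at 0 in every trained wild-type heart.

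Of the other complement genes, 51 were listed, 41 had a row and 23 were abundant enough to test. Among them C1ra, C1s1, Cd55, Cd59a and Cd59b have close copies in the mouse genome with which reads could be split, so their values are uncertain. Between trained groups 8 of the 23 were higher and 3 lower in labelled knockout hearts, with a median of 0.20, beside 12.5% higher and 15.4% lower over all tested genes. In order of p the first were the chains of complement receptor 3, Itgb2 by 1.17 and Itgam by 0.76, then C1qbp, a mitochondrial protein that can bind C1q, by -0.40, then C7, a part of the membrane attack complex, by 1.26, C1s1, a protease of C1, by 0.64 and Cd55, which speeds decay of the convertases, by 0.71 (limma adjusted p = 3.8e-06, 1.1e-04, 1.3e-04, 3.3e-04, 0.00106 and 0.00125). C7 had 17.6 ± 4.21 FPKM in trained labelled knockout and 7.14 ± 2.49 FPKM in trained wild-type hearts, and 4.43 ± 1.29 FPKM in sedentary labelled knockout and 3.46 ± 1.10 FPKM in sedentary wild-type hearts. Itgb2 had 5.97 ± 1.59 and 2.31 ± 0.322 FPKM in trained labelled knockout and trained wild-type hearts, and 2.41 ± 0.309 and 2.11 ± 0.193 FPKM in sedentary labelled knockout and sedentary wild-type hearts. Under TPM scaling 11 of the 23 were called higher and 0 lower, with C1qbp at -0.12, so calls in the lower direction depend on the scaling.

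Between sedentary groups none of the 23 was higher and 2 were lower in labelled knockout hearts, Cd59b, an inhibitor of the membrane attack complex, by -0.52 and Cd93, a receptor of endothelial and myeloid cells, by -0.60 (limma adjusted p = 0.00797 and 0.0109), beside 6.96% higher and 6.32% lower over all tested genes. With training 10 rose and 3 fell in labelled knockout hearts, led by C1s1 at 1.14, C7 at 1.88, Itgb2 at 1.12, the C1 protease C1ra at 1.06, C1qbp at -0.44 and Itgam at 0.69 (limma adjusted p = 1.1e-05, 1.5e-05, 1.7e-05, 8.0e-05, 8.2e-05 and 3.8e-04). In wild-type hearts 3 rose, C7 by 0.94, properdin (Cfp), which stabilises the alternative convertase, by 0.53 and C1ra by 0.61 (limma adjusted p = 0.0279, 0.0342 and 0.0356). None of the 3 passed once the high-Myl7 libraries were dropped, at 0.72, 0.35 and 0.43. In that fit 33 of all tested genes were called higher with training in wild-type hearts, against 403 in the main fit. In the interaction 3 were higher and 1 lower, Itgb2 at 1.02, C1s1 at 0.80, Cd55 at 0.78 and C1qbp at -0.36 (limma adjusted p = 0.00767, 0.0174, 0.0321 and 0.0292). The fit without the 5 high-Arntl libraries held 1 sedentary wild-type heart, too few to judge calls. The median over the 23 genes was 0.17 in it for the interaction, against 0.32 in the main fit. Between sedentary groups it was 0.19 against 0.02, and with training in wild-type hearts 0.20 against 0.14.

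**Figure D4:**
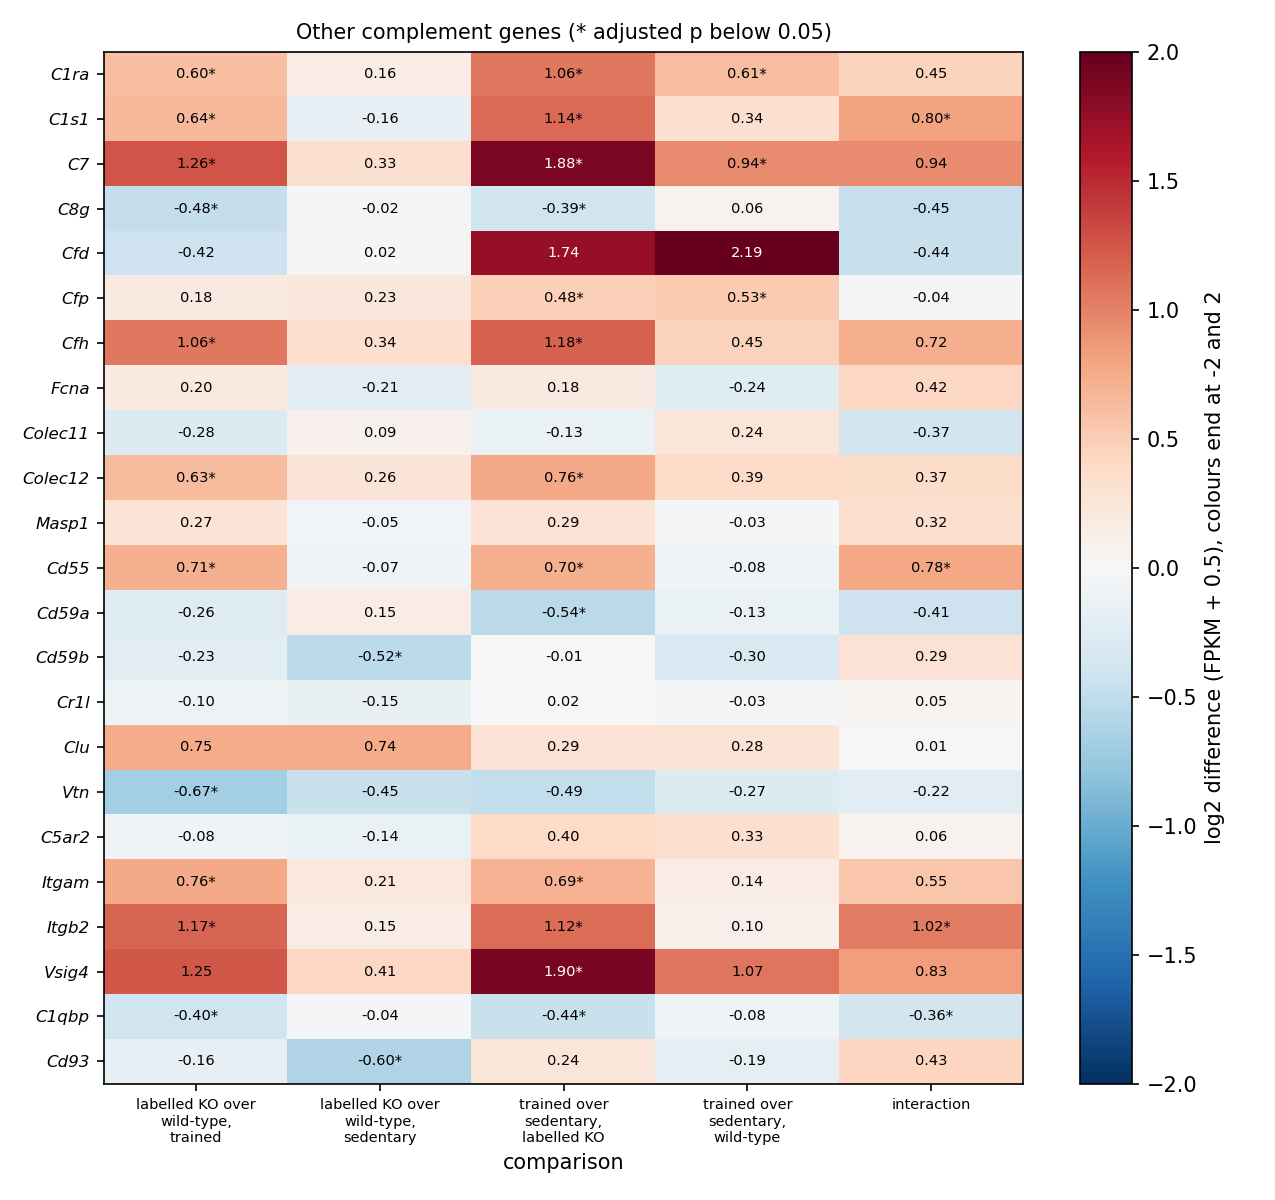
Log2 difference of FPKM + 0.5 for the 23 other complement genes that were tested, in rows, over the 4 pairwise comparisons and the interaction, in columns, with red for higher and blue for lower. Stars mark an adjusted p below 0.05. C7 shows 1.26, 0.33, 1.88, 0.94 and 0.94 from left to right, with stars in the pairwise comparisons other than the sedentary one.

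Likeness between genes was measured after group means were removed, as Pearson's r of log2(FPKM + 0.5) over the 20 libraries among 11762 genes, and is a description in which the values of a library share its depth and its dissection. C1qa was most like C1qb (r = 0.95), C1qc (0.95) and Unc93b1 (0.90), C1qb most like Laptm5 (0.97), C1qc (0.97) and C1qa, and C1qc most like C1qb, C1qa and Laptm5 (0.93). C3ar1 was most like Apobec1 (0.91), Tlr2 (0.87) and Fcgr2b (0.84), and C5ar1 most like Ttll12 (0.84), Csf1r (0.82) and Cars (0.81). C4b was most like Apoe (0.92), Igfbp6 (0.89) and Meis3 (0.89), Serping1 most like Thbs3 (0.94), Nbl1 (0.91) and Tmem176a (0.90), and C3 most like Ccl6 (0.85), C1s1 (0.82) and Osbpl9 (0.76). Among the 8 genes themselves, r was 0.85 for C4b with Serping1, 0.64 for C4b with C3 and 0.32 for C4b with C5ar1, the lowest of the 28 pairs.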

How the data were processed

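Poly-A selected, strand-specific libraries of 20 hearts were sequenced on a HiSeq instrument, with 1 batch label, per the labels. The authors deposited 1 table of FPKM per gene. The mm10 genome and the tools featureCounts 1.5.0-p3, DESeq2 1.20.0 and HISAT2 2.0.5 stand in the submitters' processing notes, with no roles given. FPKM times the exon length in GENCODE M21 gave whole reads, within 0.01 reads, in every library for 24896 of 25851 genes (96.3%), from which depth was taken.

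Group means were modelled by limma (version 3.58.1, R 4.3.3) on log2(FPKM + 0.5), as 1 fit over all 20 libraries with 16 residual degrees of freedom, eBayes with trend and two-sided tests. Genes with a mean of at least 0.5 FPKM were tested (13723, with 12128 left out), and p was adjusted by Benjamini and Hochberg over them in each of 5 comparisons, at a threshold of 0.05. The log2 scale with a pseudocount understates changes of low genes such as C3ar1. Alternatives were a pseudocount of 0.1 or 1, a filter at 2 FPKM or none, TPM scaling, fits of a comparison's groups alone, the replicate number as a block, log2 Myl7 as a covariate, fits without the libraries with high Myl7 or Arntl, voom on recovered reads, each library left out in turn and, chosen after the data were seen, log2 Upk3b as a covariate. The procedure was tested on simulated data.

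The 8 genes, the list of other complement genes and the marker lists were chosen with earlier results of these data known. Named were all 8, at most 6 called genes of the complement list per comparison in order of p, the 3 genes most like each of the 8 among those with a mean of at least 1 FPKM, and markers beside a result. Tables were made in pandas 2.3.3 and numpy 2.4.6 under Python 3.11.15.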

Additional observations from a re-analysis of the deposited data

Results flagged for a closer look

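For C3 and C3ar1 the training difference itself differed between the genotypes, by the interaction test. C3 differed by 1.17 on the log2 scale, with trained over sedentary differences of 2.12 in labelled knockout and 0.95 in wild-type hearts, and every trained heart lay above every sedentary heart in both genotypes. C3ar1 differed by 0.92, with trained over sedentary differences of 0.48 in labelled knockout and -0.44 in wild-type hearts, neither of which passed the threshold on its own. No single heart passed an outlier rule in any of the 8 genes, over 32 sets of 5 libraries checked for a gap above 0.71 of the range. The rule looks at 1 heart at a time and can miss 2 that lie apart together. Trained labelled knockout replicates 2 and 5 had 65.7 and 75.0 FPKM of C1qb, against 104 to 117 FPKM in the others of their group.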

How the results depend on the processing

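The higher level of all 8 genes in trained labelled knockout over trained wild-type hearts passed under every alternative and without any 1 library, except that C3ar1 was not tested with a filter at 2 FPKM, and training in labelled knockout hearts gave 7 or 8 genes higher throughout. The other counts changed. Between sedentary groups the count of 4 became 2 without a filter and 0 without the libraries with high Arntl, and 1 to 4 without 1 library. With training in wild-type hearts the count of 1 became 2 at a filter of 2 FPKM, 0 with the 2 groups alone, without the libraries with high Myl7 or Arntl or with Upk3b as a covariate, and 0 to 4 without 1 library. In the interaction the count of 2 became 1 without a filter, at 2 FPKM, under TPM scaling and by voom, 6 without the libraries with high Myl7, 0 without those with high Arntl and 0 to 2 without 1 library. The fit without the libraries with high Arntl held 1 sedentary wild-type heart, so its counts are not comparable with the others. With training in wild-type hearts, the genes called higher over the whole table fell from 403 to 33 without the libraries with high Myl7. They rose to 1051 without trained wild-type replicate 1. In the interaction, the genes called higher over the whole table rose from 319 to 497 without the libraries with high Myl7. Fits without libraries differ from the main fit in both the number and the kind of libraries, and the cause of the changes was not tested. The replicate number as a block gave 3 genes for training in wild-type hearts and 1 in the interaction, and no other count moved. Over all tested genes the block gave 804 higher and 860 lower with training in wild-type hearts, against 403 and 347 in the main fit. In the interaction it gave 455 higher and 850 lower, against 319 and 686. Same-numbered libraries of different groups correlated at a median of 0.07 (30 pairs, -0.28 to 0.48, 12 of them over 0.1). Differently numbered ones correlated at a median of -0.01 (120 pairs, -0.51 to 0.54, 32 of them over 0.1). These values do not settle whether the numbers pair samples, and the labels give no pairing. The sign turned for C3 between sedentary groups with Upk3b as a covariate, at -0.048, and between -0.11 and 0.14 without 1 library, being negative without sedentary wild-type replicate 5 (-0.11) or sedentary labelled knockout replicate 2 or 5 (-0.02 and -0.01). It turned for C1qc with training in wild-type hearts, at -0.012, without the libraries with high Arntl. C3ar1 and C5ar1 rest on as few as 57 and 66 reads in a library, which limits their precision.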

Other observations

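Gdf15, the cytokine named in the title of the series, had 36.0, 15.6, 44.9, 48.2 and 12.2 FPKM in trained labelled knockout hearts, against 1.78, 1.15, 3.17, 1.64 and 0.824 FPKM in trained wild-type hearts. It had 18.0, 14.9, 11.5, 22.6 and 18.6 FPKM in sedentary labelled knockout hearts, against 2.36, 1.15, 1.13, 1.45 and 0.729 FPKM in sedentary wild-type hearts. The trained labelled knockout hearts with the least Gdf15, replicates 2 and 5, were also the lowest of their group in all 8 genes, and are those with high Myl7.

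Several components that the cascade needs beyond C3 were near the floor of detection in the heart. Hc, which encodes C5, averaged 0.0170 ± 0.0137 FPKM in trained labelled knockout and 0.00403 ± 0.00553 FPKM in trained wild-type hearts. Cfb, the factor B of the alternative route, averaged 0.136 ± 0.0569 FPKM in trained labelled knockout and 0.0385 ± 0.0639 FPKM in trained wild-type hearts, and C2, the partner of C4, 0.491 ± 0.221 and 0.398 ± 0.386 FPKM in these groups. These genes were below the filter, were not tested and were chosen after their values were seen. Clusterin (Clu), a fluid-phase inhibitor of the membrane attack complex chosen in the same way, was the most abundant of those set out here, at 419 ± 73.6 FPKM in trained labelled knockout and 286 ± 170 FPKM in trained wild-type hearts, and at 340 ± 30.4 FPKM in sedentary labelled knockout and 205 ± 32.4 FPKM in sedentary wild-type hearts.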
